A study of Mus musculus with 28 samples.

Results

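Retinoids are the forms of vitamin A that cells take up, bind, convert and break down, and 9 genes of this pathway were followed across 28 libraries of mouse frontal cortex. They were Rlbp1, Stra6 and Crabp1, which encode proteins that bind retinoids or carry them into cells, Rdh10 and Aldh1a1, which encode enzymes that make retinoic acid, Cyp26b1, which encodes an enzyme that breaks it down, and the receptor genes Rara, Rarb and Rxrg. Rlbp1 was selected on the measured difference between homozygous mutant and wild-type libraries, and the 8 other genes were chosen by their roles and found by symbol. Each of the 9 filled 1 row of a table with 25900 gene identifiers, and 9 of 9 passed the filter on low counts that left 16110 genes for testing.

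The mice were on the C57BL/6 background and 20 months old. They carried a knock-in of the Q331K substitution in TDP-43, an RNA-binding protein encoded by Tardbp, a substitution known from amyotrophic lateral sclerosis. There were 10 libraries with 2 mutant alleles (Q331K/Q331K, HOM), 10 with 1 (Q331K/+, HET) and 8 with 0 (+/+, WT). The labels name no drug or second allele in any group, and counts per gene do not show the substitution itself.

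Retinol enters cells through the receptor STRA6 and is oxidised to retinal, mainly by RDH10, and then by ALDH1A enzymes to retinoic acid. Retinoic acid binds receptors of the RAR family, which sit on DNA paired with RXR receptors, and CYP26 enzymes remove it. In the brain this signal is best known from development and from the striatum, where Rarb and Rxrg are strongly expressed. CRALBP, the product of Rlbp1, is known from the retina, where it carries the retinal and retinol of the visual cycle.

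The deposited counts of a library summed to 30.5 to 62.6 M (1e6 reads) for HOM, 45 to 74.9 M for HET and 46.5 to 64.1 M for WT. All 8 markers of cortical excitatory neurons had reads in every library, and so did all 11 markers of striatal neurons and all 10 of meningeal fibroblasts. The summed striatal markers were highest in WT 3 (858 CPM, counts per 1e6 reads), HOM 6 (714 CPM), HOM 5 (701 CPM) and WT 4 (699 CPM), against a median of 437 CPM in HOM, 329 CPM in HET and 341 CPM in WT libraries. The summed meningeal markers were highest in HOM 3 (229 CPM) and HET 4 (142 CPM). HOM 3 and WT 6 lay at the ends of the first principal component, which held 13% of the variance. Results that rest on these libraries are given with and without them.

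The 2 start regions printed here are those of Rarb and Rlbp1. The Rarb promoter is the textbook site of retinoic acid control, and Rlbp1 was selected on its difference between HOM and WT libraries. The 2 regions come from RefSeq on GRCm38.p6 and run from 250 bases before to 50 bases after the start. The Rarb window is chr14:16575427-16575726 and the Rlbp1 window is chr7:79386978-79387277, both on the minus strand. Capitals mark a direct repeat of 2 receptor half-sites with a spacer of 5 bases.
Rarb: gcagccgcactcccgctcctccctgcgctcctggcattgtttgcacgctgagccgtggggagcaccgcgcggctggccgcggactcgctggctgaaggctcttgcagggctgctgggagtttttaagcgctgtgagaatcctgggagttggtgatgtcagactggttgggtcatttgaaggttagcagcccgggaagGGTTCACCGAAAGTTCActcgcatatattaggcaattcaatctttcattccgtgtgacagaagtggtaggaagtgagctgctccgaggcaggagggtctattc
Rlbp1: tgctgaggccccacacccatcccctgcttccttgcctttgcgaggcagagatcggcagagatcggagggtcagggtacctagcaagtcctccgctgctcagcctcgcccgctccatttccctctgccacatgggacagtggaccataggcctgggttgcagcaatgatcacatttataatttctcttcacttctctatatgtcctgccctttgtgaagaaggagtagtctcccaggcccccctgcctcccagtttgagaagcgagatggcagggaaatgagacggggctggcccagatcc

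The half-sites searched were AGGTCA and the variants with the letters AGTTCA, the letters GGTTCA or the letters GGGTCA, on both strands, alone or as direct repeats with spacers of 1, 2 or 5 bases. The repeat with 5 bases, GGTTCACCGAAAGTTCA, lay from base -53 to base -37 relative to the Rarb start. It was in 1 of the 16 windows of the 8 genes that had one (Rdh10 had none in the table), and 0.0974% of 32851 promoters of the same length held such a repeat. Single half-sites were in 8 of the 16 windows and in 43.7% of all promoters. The Rlbp1 window held 1 half-site and no direct repeat, which says only that these letters are not in this window.

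Per kb of exon, Rlbp1 and Aldh1a1 were the most abundant of the 9 genes. Rlbp1 averaged 7.89 CPM per kb (SD 1.1, n = 28) and Aldh1a1 averaged 7.89 CPM per kb (SD 1.19), and Rlbp1 was the higher of the pair in 13 of 28 libraries. Rara followed at 2.99 CPM per kb (SD 0.439), below Aldh1a1 in 28 of 28 libraries. Rxrg averaged 2.85 and Rdh10 2.48 CPM per kb, and these neighbours changed places between libraries, with Rxrg above Rdh10 in 12 of 28 and below Rara in 19 of 28. Rarb (1.83), Stra6 (1.08), Cyp26b1 (0.693) and Crabp1 (0.325 CPM per kb) came next, and each of them lay above the one after it in at least 24 of 28 libraries. The exon lengths are those of GENCODE, where Aldh1a1 starts at base 20492715 and Rarb ends at base 16819156. In the counts table Aldh1a1 starts at 20601961 and Rarb ends at 16575472. Their levels per kb, and so their places in this order, may be too low.

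The 9 genes also differed in how much they varied between libraries of 1 genotype. The biological coefficient of variation was 6.05% for Rdh10 and 6.7% for Rlbp1, near the middle of all tested genes. It was 13.5% for Aldh1a1, 13.7% for Rara, 20.6% for Rarb, 24.6% for Stra6 and 25.2% for Cyp26b1. Crabp1 (34.1%) and Rxrg (47.3%) were at the 97.7th and 99th percentiles of all genes tested. Over the 28 libraries the highest value was 1.27 times the lowest for Rdh10, 6.22 times for Rxrg and 6.85 times for Crabp1. Crabp1 had only 4 to 29 reads per library, so its range also holds counting noise.

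**Figure D1:**
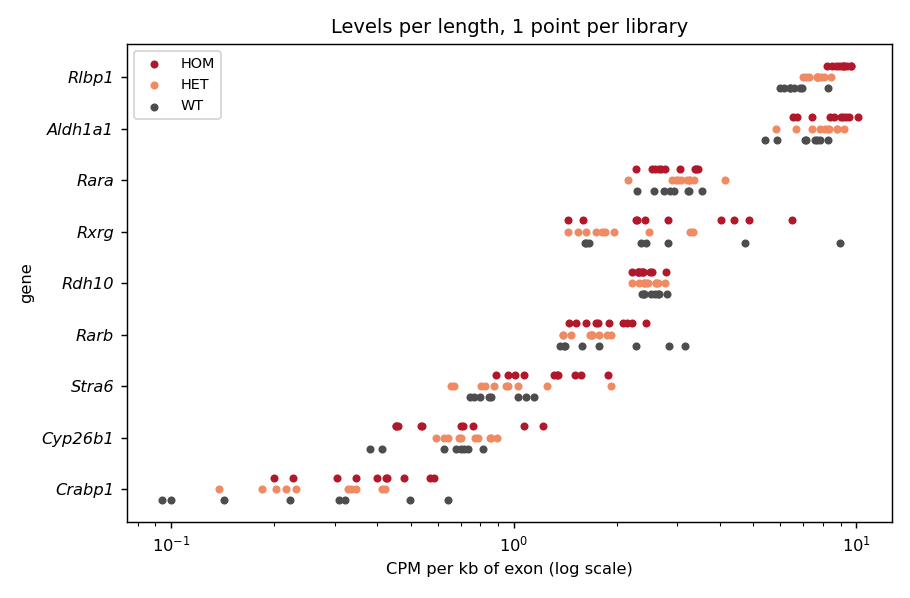
Levels of the 9 genes as CPM per kb of exon on a log axis, 1 point per library, in red for HOM, orange for HET and grey for WT. Rlbp1 and Aldh1a1 lie highest, with means of 7.89 CPM per kb each, and the points of Rxrg and Crabp1 are the most spread. Crabp1 had only 4 to 29 reads per library.

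Rlbp1, whose product binds retinal and retinol, was higher in HOM libraries than in both other genotypes. The HOM libraries held between 24.3 and 28.6 CPM with a median of 27.0, the HET libraries between 20.7 and 24.9 CPM with a median of 22.8, and the WT libraries between 17.7 and 24.4 CPM with a median of 19.2. Of the 10 HOM libraries, 9 lay above the highest WT library and 9 above the highest HET library, and 10 of 10 HET libraries lay above the WT mean. WT 4, at 24.4 CPM, stood among the HET values, and the next WT library was at 20.5 CPM.

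The means were 26.8 ± 1.41 CPM in HOM (SD, n = 10), 22.6 ± 1.27 CPM in HET (n = 10) and 19.8 ± 2.1 CPM in WT (n = 8), and each value rests on 851 to 1711 reads. The log2 fold change was 0.44 for HOM over WT (SE 0.05, 1.35-fold) and 0.24 for HOM over HET (SE 0.04, 1.18-fold). Both are descriptions without a test, since Rlbp1 was chosen on the first and the second was known from earlier results. Rlbp1 was the 1 gene of the 9 past an adjusted p of 0.05 in each of these comparisons, against 7.61% of all tested genes for HOM over WT and 0.0372% for HOM over HET. Nothing is read from these counts. The call for HOM over HET was lost with neighbouring tissue scores as covariates (0.23), with astrocyte and precursor scores (0.17), without HOM 3 and HET 4 (0.22), and without any 1 of HOM 2, HOM 3, HOM 8, HOM 10, HET 2 or HET 7 (0.23 to 0.26 over all libraries left out in turn).

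HET libraries averaged 1.14-fold of the WT level for Rlbp1, a log2 fold change of 0.19 (SE 0.05). It was not called in edgeR. It was called without WT 4 (0.24), a setting that removes the high value from WT alone. These are descriptions too and no test is read from them, since the WT libraries are the ones used to select Rlbp1. For departure of HET from the straight line between HOM and WT the value was 0.05 on the log2 scale (SE 0.08).

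Some markers of glial, vascular and meningeal cells were higher in HOM beside Rlbp1. This comparison called 7.61% of all tested genes in either direction. Of 7 microglia markers 5 passed the edgeR test as higher in HOM than in WT and 0 as lower, and their sum ran from 360 to 445 CPM in HOM, from 320 to 378 CPM in HET and from 307 to 372 CPM in WT libraries. Of 6 markers of oligodendrocyte precursors, 4 passed the edgeR test as higher in HOM than in WT and 0 as lower, and their sum ran from 140 to 163 CPM in HOM, from 127 to 158 CPM in HET and from 124 to 142 CPM in WT libraries. Of 11 astrocyte markers 3 passed as higher and 0 as lower, with sums of 5230 to 6020 CPM in HOM, 5040 to 5970 CPM in HET and 5050 to 6030 CPM in WT libraries. Of 7 endothelial markers 2 passed as higher, and of 8 markers of mature oligodendrocytes 0 passed in either direction (median log2 fold change -0.09). Of 10 meningeal fibroblast markers 1 passed as higher and 0 as lower, with the largest median log2 fold change of the 9 lists, 0.60. Their sums ran from 55.2 to 229 CPM in HOM, 60.7 to 142 CPM in HET and 44.8 to 98.6 CPM in WT libraries. None passed among markers of cortical excitatory neurons (median -0.03), striatal neurons (-0.03) and choroid plexus (0.08). With astrocyte and precursor scores as covariates the Rlbp1 difference of HOM over WT was 0.31 and was no longer called, in a fit that called 11 genes in all, against 1226 without them. The astrocyte and precursor scores were themselves higher in HOM than in WT, by 0.14 and 0.23, so this fit cannot tell them apart from genotype. That setting was chosen after seeing the data. The part of any marker list in the Rlbp1 difference was not tested. In whole tissue, more cells of a type and more RNA per cell cannot be told apart, nor can fewer cells and less RNA per cell.

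**Figure D2:**
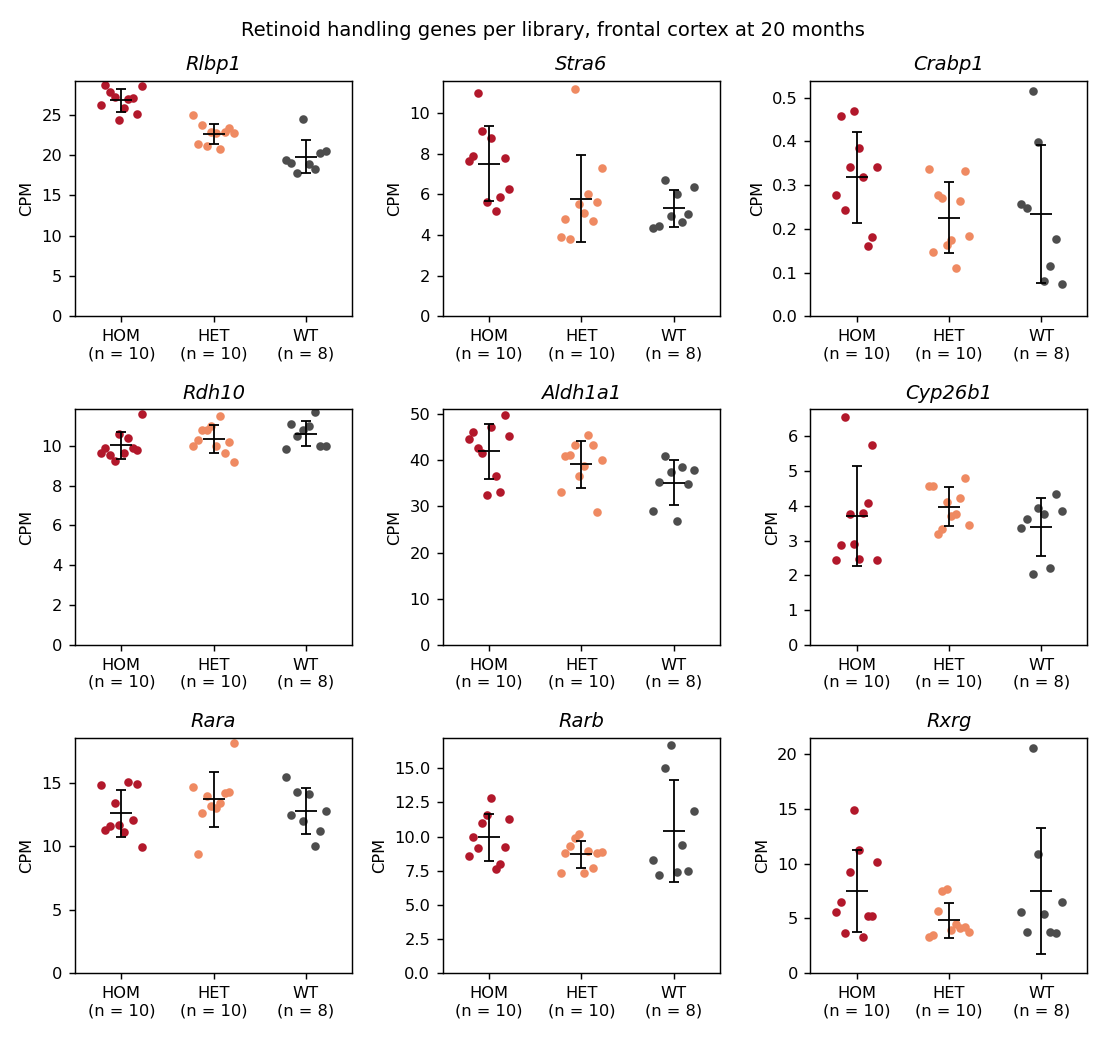
CPM of each of the 9 genes in every library, with HOM, HET and WT from left to right and the group mean and SD drawn over the points. The HOM points of Rlbp1 lie between 24.3 and 28.6 CPM, above the WT points except WT 4 at 24.4 CPM, while the groups of Rara and Cyp26b1 overlap.

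Stra6, the membrane receptor that takes up retinol from its carrier in blood, had the largest fitted log2 fold change of the 9 genes for HOM over WT. HOM libraries held 5.19 to 11 CPM with a median of 7.73, HET libraries 3.82 to 11.2 CPM with a median of 5.33, and WT libraries 4.34 to 6.71 CPM with a median of 4.98. HOM 3 and HET 4 were the highest of their groups, 6 of 10 HOM libraries exceeded all WT libraries, and the groups overlapped.

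The log2 fold change of Stra6 for HOM over WT was 0.50 (SE 0.17, 1.41-fold) and was not called. HOM over HET was 0.38 (SE 0.16, p = 0.0282, adjusted p = 0.53) and HET over WT 0.12 (SE 0.17, adjusted p = 0.832) in the edgeR test. Stra6 passed for HOM over WT when only the 2 groups compared were fitted and when HOM 3 and HET 4 were left out (0.42). The value for HOM over WT was 0.20 with meningeal, choroid plexus and striatal scores as covariates and 0.09 with astrocyte and precursor scores.

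Crabp1, which encodes a cytosolic protein that binds retinoic acid, was close to the limit of detection. HOM libraries held 9 to 26 reads (0.161 to 0.469 CPM), HET libraries 7 to 18 reads (0.110 to 0.338 CPM) and WT libraries 4 to 29 reads (0.0753 to 0.516 CPM). The lowest and the highest value of all 28 libraries were both in WT, so the groups overlapped throughout. The log2 fold change was 0.42 for HOM over WT (SE 0.30), 0.48 for HOM over HET (SE 0.28, adjusted p = 0.66) and -0.07 for HET over WT (SE 0.30, adjusted p = 0.964, edgeR). Without WT 3 and WT 4 it was 0.97 for HOM over WT and was called, and without HOM 5 and HOM 6 as well it was 0.82 and was not called.

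Of the genes that make retinoic acid, neither passed a test. Rdh10, which encodes the main retinol dehydrogenase of the pathway, had the lowest biological coefficient of variation of the 9 genes (6.05%). It averaged 10.0 ± 0.673 CPM in HOM, 10.3 ± 0.685 CPM in HET and 10.6 ± 0.629 CPM in WT libraries (SD, n = 10, 10 and 8). Its log2 fold change was -0.08 for HOM over WT (SE 0.05, 95% interval -0.17 to 0.01), and for HET over WT -0.04 (SE 0.05, adjusted p = 0.818, edgeR).

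Aldh1a1, which encodes a retinal dehydrogenase, held 32.4 to 49.8 CPM in HOM libraries (median 43.6), 28.8 to 45.5 CPM in HET libraries (median 40.4) and 26.8 to 40.9 CPM in WT libraries (median 36.3). The ranges overlapped, although 7 of 10 HOM libraries exceeded every WT library. The log2 fold change was 0.25 for HOM over WT (SE 0.09, not called), 0.10 for HOM over HET (SE 0.09, adjusted p = 0.818) and 0.16 for HET over WT (SE 0.09, adjusted p = 0.583, edgeR).

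Cyp26b1, the retinoic acid hydroxylase of the set, held 2.43 to 6.54 CPM in HOM libraries (median 3.32), 3.19 to 4.80 CPM in HET libraries (median 3.94) and 2.05 to 4.35 CPM in WT libraries (median 3.69). The HOM libraries were the most spread, with HOM 3 (6.54 CPM) and HOM 9 (5.74 CPM) above every other library and 5 of 10 below the lowest HET library. Its log2 fold change was 0.14 for HOM over WT (SE 0.18), 0.01 without HOM 3 and -0.06 without WT 6 and HOM 3, and it was -0.09 for HOM over HET (SE 0.17, adjusted p = 0.934) and 0.23 for HET over WT (SE 0.18, adjusted p = 0.677, edgeR).

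None of the receptor genes was called between genotypes. Rara, the retinoic acid receptor of widest expression, averaged 12.6 ± 1.81 CPM in HOM, 13.7 ± 2.14 CPM in HET and 12.8 ± 1.77 CPM in WT libraries (SD, n = 10, 10 and 8). Its log2 fold change was -0.02 for HOM over WT (SE 0.10, 95% interval -0.21 to 0.16).

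Rarb held 7.65 to 12.8 CPM in HOM libraries (median 9.64), 7.30 to 10.2 CPM in HET libraries (median 8.86) and 7.22 to 16.7 CPM in WT libraries (median 8.84). The highest values were WT 4 at 16.7 CPM and WT 3 at 15.0 CPM. HET over WT was -0.26 on the log2 scale (SE 0.14, adjusted p = 0.556, edgeR), and 0.02 without WT 3 and WT 4. HOM over WT was -0.07 (SE 0.14), 0.21 without WT 3 and WT 4, and 0.12 without these and HOM 5 and HOM 6. Exons of Rarb share 1793 bases with Top2b on the other strand, and since the strand setting of the counting is not given in the sources used here, its level is uncertain.

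Rxrg, the RXR receptor with the most restricted expression in brain, held 3.30 to 14.9 CPM in HOM libraries (median 6.02), 3.30 to 7.66 CPM in HET libraries (median 4.20) and 3.72 to 20.5 CPM in WT libraries (median 5.48). WT 3 and HOM 5 stood highest, and the groups overlapped. The log2 fold change was -0.64 for HET over WT (SE 0.33, adjusted p = 0.536) and 0.63 for HOM over HET (SE 0.32, adjusted p = 0.598), with a departure from the straight line of 1.27 (SE 0.57, p = 0.0348, adjusted p = 1, edgeR). HOM over WT was 0.00 (SE 0.33), 0.65 without WT 3 and WT 4, and 0.35 without these and HOM 5 and HOM 6. Without WT 3 and WT 4 HET over WT was 0.02, and HOM over HET was 0.33 without these and HOM 5 and HOM 6.

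**Figure D3:**
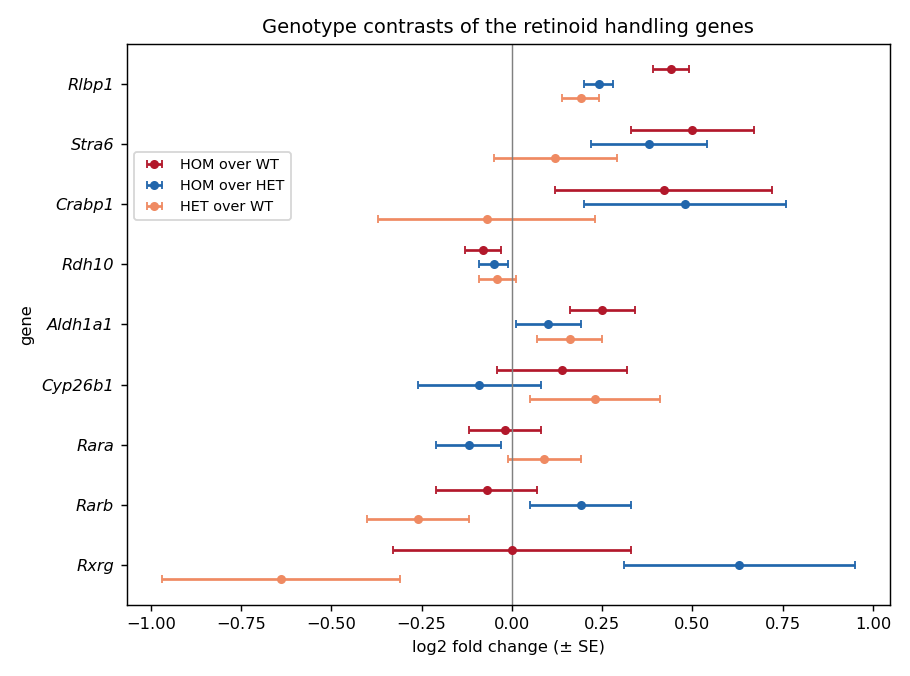
Log2 fold changes of the 9 genes for HOM over WT (red), HOM over HET (blue) and HET over WT (orange), with bars of 1 SE on either side. The bars of Rlbp1 are short and lie above 0 in each comparison, at 0.44, 0.24 and 0.19, and those of Rxrg and Crabp1 are the longest.

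Across the 9 genes, 0 were called for HET over WT, where 0.0% of 16110 genes were called, and 0 for departure from a straight line, where 0.0% were called. By unadjusted p under 0.05 edgeR held 1547 genes for HET over WT and 456 for departure. DESeq2 called 12 and limma voom 14 of all genes for HET over WT, and each called 0 for departure. The median log2 fold change of the 9 genes was 0.14 for HOM over WT, 0.19 for HOM over HET and 0.09 for HET over WT, beside 0.005, 0.0019 and 0.0007 over all tested genes. Values above 0 were held by 5 of the 9 genes for HOM over WT, 6 for HOM over HET and 5 for HET over WT. Rlbp1, selected on HOM over WT, is among the 9, so no shift of the set is read from these medians. The comparisons share libraries, so their values are not independent.

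Rxrg and Rarb moved with the striatal markers between libraries of the same genotype. After the genotype means were subtracted, log2 CPM of Rxrg followed the striatal score with a Pearson r of 0.96 and a Spearman rho of 0.92 (n = 28, permutation p = 1e-05 for both, adjusted p = 0.000405 over 81 pairs of gene and marker list). That p is the smallest that 100000 resamples can give. Within genotypes r was 0.93 in HOM, 0.97 in HET and 0.97 in WT libraries, and it was 0.94 without WT 3 and WT 4.

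For Rarb the same relation had an r of 0.89 and a rho of 0.90 (n = 28, permutation p = 1e-05, adjusted p = 0.000405 for both). Within genotypes r was 0.93 in HOM, 0.79 in HET and 0.92 in WT libraries, and it was 0.85 without WT 3 and WT 4. Drd2, a dopamine receptor gene of the striatum, is in the striatal list and also in the list of genes that respond to retinoic acid. With the meningeal, choroid plexus and striatal scores as covariates, HET over WT was -0.14 for Rxrg and -0.05 for Rarb.

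Stra6 moved with the meningeal markers less firmly. Its r was 0.59 (n = 28, permutation p = 0.00099, adjusted p = 0.0267) and its rho 0.53 (permutation adjusted p = 0.119). Without HOM 3 and HOM 7 the r was 0.46 (permutation adjusted p = 0.211) and no longer passed the threshold. Within genotypes r was 0.63 in HOM, 0.84 in HET and 0.11 in WT libraries.

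Rlbp1 passed with none of the 9 marker lists. Its r was -0.52 with cortical excitatory neurons (n = 28, permutation adjusted p = 0.179), 0.41 with oligodendrocyte precursors, 0.32 with microglia and 0.30 with astrocytes. Without HOM 1 and WT 4 the r with cortical excitatory neurons was -0.37 (permutation adjusted p = 0.345). In all, 3 of the 81 pairs passed by r and 2 by rho.

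**Figure D4:**
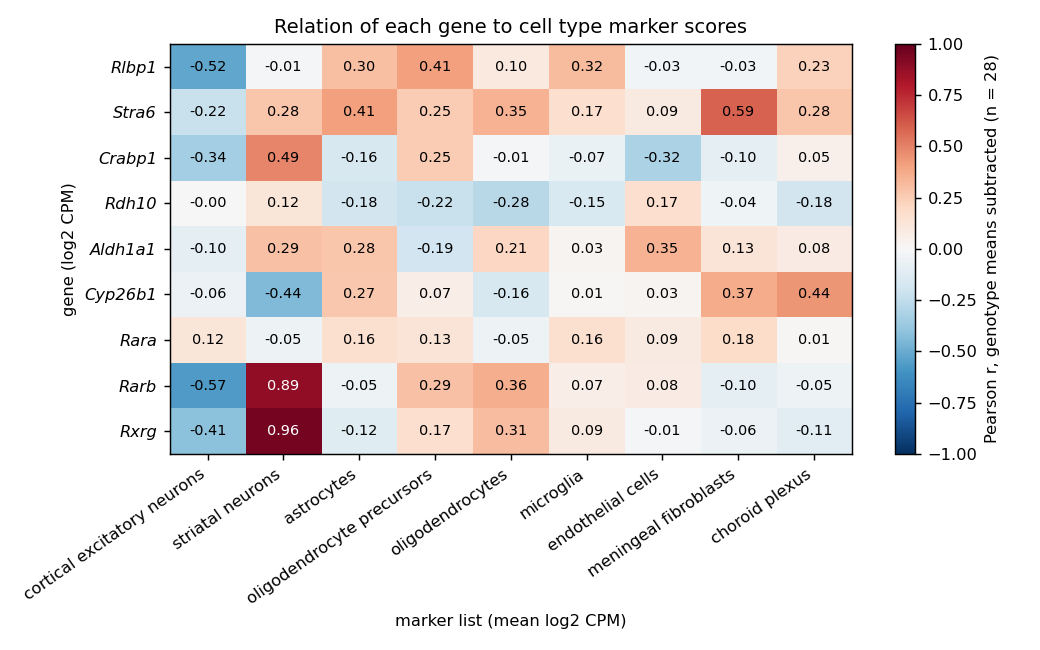
Pearson r between log2 CPM of each gene and the mean log2 CPM of each marker list over 28 libraries, after the genotype means were subtracted. The cells of Rxrg and Rarb with striatal neurons stand out at 0.96 and 0.89, followed by Stra6 with meningeal fibroblasts at 0.59.

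**Figure D5:**
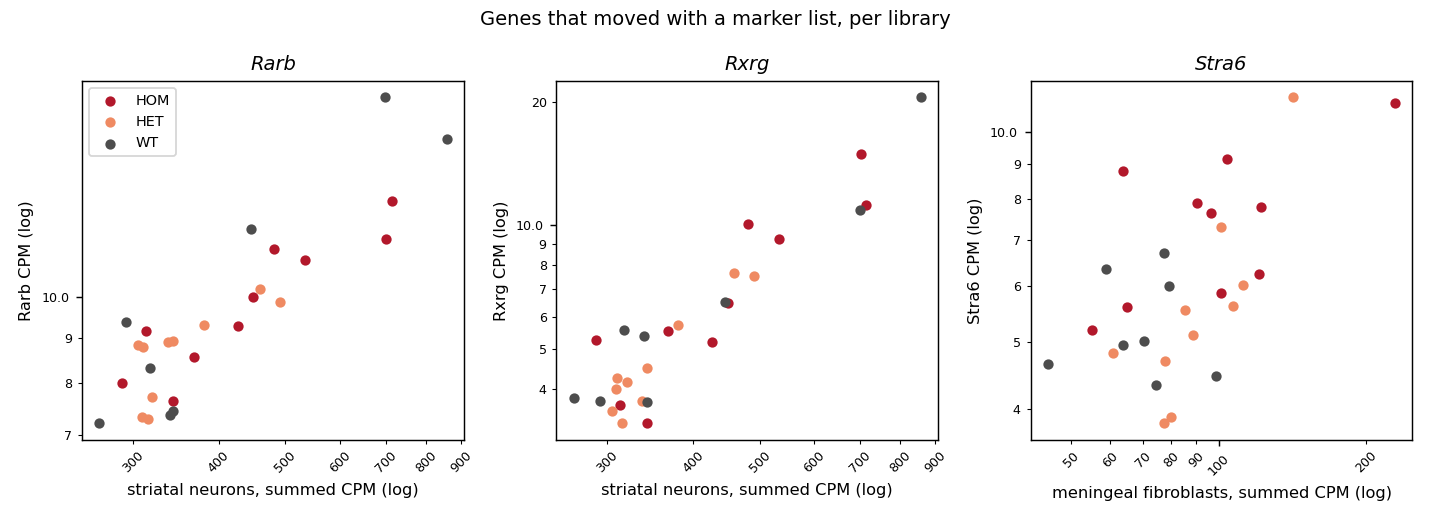
CPM of Rarb, Rxrg and Stra6 against the summed CPM of the marker list each moved with, on log axes, 1 point per library in red for HOM, orange for HET and grey for WT. WT 3 lies at the upper end for Rxrg (20.5 CPM), and HOM 3 and HET 4 lie at the right for Stra6.

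Among themselves, the 9 genes were most alike in the pair of Rxrg and Rarb, with an r of 0.83 over the 28 libraries after the genotype means were subtracted. Rxrg and Crabp1 had an r of 0.50, and Cyp26b1 and Rxrg one of -0.51. These values share the libraries and their depth and are given as a description.

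Over 12547 genes with a mean of at least 1 CPM, the genes most like each of the 9 by the same measure were named by rule. Those most like Rlbp1 were Rgs14 (r 0.76, rho 0.71), Tmem132e (r 0.75), Htr2c (r 0.75), Gng4 (r 0.73) and Slc29a4 (r 0.72). Rxrg was most like Drd2 (r 0.96), Slc5a7 (r 0.95) and Tmem90a (r 0.95), and Rarb most like Gpr6 (r 0.91), Tacr1 (r 0.91) and Drd1a (r 0.90). Drd2, Gpr6 and Drd1a are markers in the striatal list.

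Stra6 was most like Rhob (r 0.85), Angptl4 (r 0.82) and Tgm2 (r 0.80), and Aldh1a1 most like Ino80c (r 0.82), Akr1c18 (r 0.82) and Pygm (r 0.80). Rdh10 was most like Rbpms2 (r 0.78), Rara most like Wisp1 (r 0.84) and Cyp26b1 most like Fzd3 (r 0.77).

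Of 52 other genes of the retinoid pathway in the table, 38 passed the filter, and in HOM against WT 2 were higher, 1 was lower and 35 did not pass the edgeR test, beside 7.61% called among all genes. A share of 3 in 38 is near that background and is no result about retinoid genes as a group. Rdh5, which encodes a dehydrogenase of the visual cycle, was at 18.3 ± 1.6 CPM in HOM, 17.0 ± 0.825 CPM in HET and 16.4 ± 0.754 CPM in WT libraries, a log2 fold change for HOM over WT of 0.15 (SE 0.04, adjusted p = 0.0295, edgeR). Its exons share 720 bases with Bloc1s1 on the same strand, so its count is uncertain. Rbp4, the gene of the retinol carrier of blood, was at 15.0 ± 1.26 CPM in HOM, 13.4 ± 1.34 CPM in HET and 13.1 ± 1.17 CPM in WT libraries (log2 fold change 0.20, SE 0.06, adjusted p = 0.0448, edgeR).

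Nrip1, the gene of a receptor corepressor, was lower, at 39.7 ± 3.03 CPM in HOM, 40.9 ± 2.65 CPM in HET and 43.7 ± 1.70 CPM in WT libraries (log2 fold change -0.14, SE 0.04, adjusted p = 0.0458, edgeR), with 10 of 10 HOM libraries below the WT mean. These 3 calls did not hold when HOM 3 and WT 6 were left out or when only the 2 groups were fitted. In HET against WT, 0 of the 38 were called.

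By role, 1 of 5 tested binding and transport genes was higher in HOM than in WT (Rbp4) and 0 were lower. The most abundant of them per kb was Fabp5, a fatty acid binding protein that also carries retinoic acid, with a log2 fold change of 0.06 for HOM over WT (adjusted p = 0.582, edgeR). Of 16 synthesis and storage genes 1 was higher (Rdh5) and 0 were lower, with a median of 0.03. The dehydrogenase gene Rdh14 was at 0.00 (adjusted p = 0.99), Rdh11 at -0.08 (adjusted p = 0.227) and the acyltransferase gene Dgat1 at 0.05 (adjusted p = 0.493, edgeR).

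The other receptors, Rxrb (0.03), Rxra (0.10) and Rarg (0.01), did not pass. Among 6 cofactors 1 was lower (Nrip1), while Ncor1 was at -0.04 and Ncoa1 at 0.01, neither of them called. Of 10 genes known to respond to retinoic acid 0 were higher and 1 was lower (Nrip1). Nrgn, a postsynaptic protein gene, was at -0.08, the transcription factor gene Bhlhe40 at -0.17 and the retinal reductase gene Dhrs3 at 0.13 (adjusted p = 0.0748, edgeR). Of 7 visual cycle genes 1 was higher (Rdh5), and Rpe65, the isomerase of that cycle, was at -0.06. The breakdown genes Cyp26a1 and Cyp26c1 did not pass the filter.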

How the data were processed

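PolyA RNA of frontal cortex was sequenced with a stranded kit, per the labels' protocols. The submitters' processing notes name Trim Galore 0.4.3, HISAT2 2.0.5 and the build GRCm38. What counted the reads, with which strand setting and annotation, is not given in the sources used here, so reads of overlapping genes on opposite strands cannot be told apart. The authors deposited whole-number read counts for each gene and library, without normalisation, as the values show.

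Rows of 1 gene identifier were summed. Genes were filtered with filterByExpr, libraries were scaled by TMM, and 1 fit of 28 libraries in edgeR 4.0.16 (quasi-likelihood test, two-sided, R 4.3.3) gave the contrasts, with Benjamini-Hochberg adjustment over 16110 genes and a threshold of 0.05. Levels are CPM with the SD between libraries. Levels per kb used exon lengths of GENCODE, and promoters came from RefSeq. Marker scores are mean log2 CPM (prior count 2). The fit was checked on simulated data. Total counts of 30.5 to 74.9 M (1e6 reads) and a biological coefficient of variation of 8.46% set the precision.

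The genes and lists were chosen with earlier results of these data known. The other retinoid genes named are those called and the 3 most abundant per kb in each list, of which some are not reported here. Alternatives were DESeq2 1.42.0, its size factors in edgeR, limma 3.58.1 (voom with quality weights), other filters, covariates, a replicate block, only the groups compared, and libraries left out. Whether libraries came from separate animals is not stated in the labels, and p-values then cover only how these libraries vary, possibly for technical reasons. All 378 pairs of libraries differed by more than sampling noise, with a chi-square per degree of freedom of at least 6.37. For HOM against WT no p is given for the 9 genes, and for Rlbp1 none in any comparison of genotypes.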

Additional observations from a re-analysis of the deposited data

Results flagged for a closer look

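In 7 of 63 sets of values 1 library stood far from the others of its genotype, where chance gives about 1 in 20 for independent, normally distributed sets. These sets share libraries and include genes that move together, so the count is a description. Rlbp1 was at 24.4 CPM in WT 4, against 17.7 to 20.5 CPM in the other WT libraries. Rxrg was at 20.5 CPM in WT 3, against 3.72 to 10.9 CPM in the other WT libraries. Stra6 was at 11.2 CPM in HET 4, against 3.82 to 7.29 CPM in the other HET libraries. Rdh5 was at 15.0 CPM in HET 5, against 16.7 to 18.3 CPM in the others.

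Among the marker sums, microglia were at 445 CPM in HOM 10, against 360 to 399 CPM in the other HOM libraries. Meningeal fibroblasts were at 229 CPM in HOM 3, against 55.2 to 122 CPM. Choroid plexus was at 12.9 CPM in WT 2, against 5.09 to 7.76 CPM in the other WT libraries. The part of these libraries' tissue make-up in the gene values was not tested.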

How the results depend on the processing

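The settings without WT 3 and WT 4, without these and HOM 5 and HOM 6, without HOM 3 and HET 4, and with astrocyte and precursor scores were chosen after seeing the data. The setting without WT 3 and WT 4 removes high striatal libraries from WT alone and so is one-sided. Of the 9 genes, 1 was called for HOM against WT, but 0 with astrocyte and precursor scores and 2 without WT 3 and WT 4, without HOM 3 and HET 4 or with only the groups compared. For HOM against HET 1 was called, but 0 with neighbouring tissue scores, with astrocyte and precursor scores, without HOM 3 and HET 4, and with the replicate block (numbers 1 to 8). With each library left out in turn these counts ran from 1 to 2 and from 0 to 1, and for HET against WT from 0 to 1. The count of HOM against HET was 0 without HOM 2, HOM 3, HOM 8, HOM 10, HET 2 or HET 7, and that of HOM against WT was 2 without HET 4.

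Of the other retinoid genes, 3 were called for HOM against WT, but 1 with no count filter and 0 without WT 6 and HOM 3, with neighbouring tissue scores, with astrocyte and precursor scores, or with only the groups compared, and 0 to 4 with 1 library left out. With the median of each marker list 6 pairs passed in place of 3. The cause of these changes was not tested.

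Direction turned for values that were not called. Crabp1 in HET over WT was 0.04 with voom, 0.31 with neighbouring tissue scores, 0.48 without WT 3 and WT 4, 0.49 without these and HOM 5 and HOM 6, and -0.21 to 0.21 with 1 library left out (0.02 without HET 7, 0.08 without WT 4). Rarb and Rxrg in HET over WT were each 0.02 without WT 3 and WT 4, also without HOM 5 and HOM 6. Stra6 in HET over WT was -0.05 with neighbouring tissue scores, -0.08 with astrocyte and precursor scores, and -0.04 without HET 4, alone or with HOM 3 (-0.04 to 0.18 with 1 library left out). Rbp4 in HET over WT was -0.01 with and -0.02 without the replicate block. In HOM over HET, Rarb was -0.02 with neighbouring tissue scores, Cyp26b1 0.01 without WT 3, WT 4, HOM 5 and HOM 6, and Nrip1 0.01 with astrocyte and precursor scores. In HOM over WT, Cyp26b1 was -0.06 without WT 6 and HOM 3, -0.01 with neighbouring tissue scores and -0.07 with astrocyte and precursor scores. Rarb was 0.03 with voom, 0.21 without WT 3 and WT 4, 0.12 without these and HOM 5 and HOM 6, 0.02 without WT 3 and 0.06 without WT 4. Rara was 0.02 without WT 3, WT 4, HOM 5 and HOM 6, 0.01 without HOM 10 and 0.02 without WT 1. Rxrg, at 0.00, ran from -0.18 to 0.41 with 1 library left out and was 0.22 with voom. Over all genes, 1226 were called for HOM against WT, 364 with neighbouring tissue scores, 509 without WT 6 and HOM 3, 695 without WT 3, WT 4, HOM 5 and HOM 6, and 11 with astrocyte and precursor scores.

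The replicate numbers did not pair the libraries: over 26 same-number pairs r ran from -0.164 to 0.183, and 2 libraries correlated best with their own number. Depth limits Crabp1 most, at 4 to 29 reads per library.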
